A study of Mus musculus with 12 samples.

Results

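Chemokine ligands made by T cells were followed through Th9, Th2 and regulatory T cell (Treg) cultures and through Th9 cultures restimulated via the T cell receptor. They are 10 listed genes, namely Ccl1, Ccl3, Ccl4, Ccl5, Ccl17, Ccl20, Ccl22, Xcl1, Cxcl3 and Cxcl10, out of 27597 genes on the array. In the scanner output 9 of them carried their current symbol, and the probe for Cxcl3, named Gm1960 there, was matched by its RefSeq accession. The 10 genes had 11 probes, Ccl5 having 2, and all 10 genes passed the filter on dim probes. By the probe annotation in the scanner files (mouse build mm8), the probes of Ccl3 (chr11:83464051-83464110), Ccl4 (chr11:83480745-83480804) and Ccl5 (chr11:83341989-83342048 for the brighter one) lie close together on chromosome 11, those of Ccl17 and Ccl22 on chromosome 8 and those of Cxcl3 and Cxcl10 on chromosome 5.

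RNA was hybridised to 12 one-colour Agilent arrays, 3 for each of 4 groups of C57BL/6 mouse CD4+ T cells. All cultures started from naive CD4+CD62L+ T cells that were selected magnetically from spleen and lymph nodes, were activated with plate-bound anti-CD3 and soluble anti-CD28, were expanded after 3 days and lasted 5 days. Stimulated Th9 cultures were grown as Th9 cultures and then exposed to anti-CD3 (1 µg/ml) for 6 h. Th9 cultures received IL-4 (20 ng/ml), TGF-β (2 ng/ml) and anti-IFN-γ, with IL-4 and TGF-β given again at expansion. Th2 cultures received IL-4 and anti-IFN-γ. Treg cultures received TGF-β and anti-IL-4, and IL-2 at expansion. The labels mention no sort after culture, and nothing in them says that a group's 3 arrays stem from different animals or cultures. The p-values therefore reflect no more than the spread between these samples, and that spread may be technical.

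Chemokines are small secreted proteins that guide cells bearing matching G protein-coupled receptors. Ccl3 and Ccl5 are ligands of Ccr1, Ccl17 and Ccl22 of Ccr4, Ccl1 of Ccr8, Ccl20 of Ccr6, Xcl1 of Xcr1, Cxcl3 of Cxcr2 and Cxcl10 of Cxcr3. In T cells Ccl3, Ccl4 and Xcl1 are known as genes induced rapidly through the T cell receptor, whereas Ccl5 is known as a gene of antigen-experienced cells. Cxcl10 is known as an interferon-induced gene, and Ccl17 and Ccl22 are known mainly from dendritic cells and macrophages.

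Shown are 4 of the ligand promoters that hold matches to motifs of factors acting downstream of the T cell receptor and of cytokine receptors. Each is the RefSeq sequence of the 250 bases before the gene's start, 5′ to 3′ on the gene's strand, in the GRCm38.p6 build. Capitals mark the matches.

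Ccl20 promoter, GRCm38.p6 chr1:83116516-83116765, + strand: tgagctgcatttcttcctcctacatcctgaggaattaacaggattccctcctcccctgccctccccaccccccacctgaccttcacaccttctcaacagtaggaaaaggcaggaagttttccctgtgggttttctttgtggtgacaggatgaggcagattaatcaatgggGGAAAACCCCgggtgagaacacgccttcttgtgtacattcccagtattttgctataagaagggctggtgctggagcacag
Cxcl3 promoter, GRCm38.p6 chr5:90785851-90786100, + strand: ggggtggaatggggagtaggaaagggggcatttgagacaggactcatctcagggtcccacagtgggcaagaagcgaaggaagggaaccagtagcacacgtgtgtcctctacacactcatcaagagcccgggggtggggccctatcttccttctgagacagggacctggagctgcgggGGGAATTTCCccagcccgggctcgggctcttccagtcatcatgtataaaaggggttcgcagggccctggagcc
Cxcl10 promoter, GRCm38.p6 chr5:92348890-92349139, - strand: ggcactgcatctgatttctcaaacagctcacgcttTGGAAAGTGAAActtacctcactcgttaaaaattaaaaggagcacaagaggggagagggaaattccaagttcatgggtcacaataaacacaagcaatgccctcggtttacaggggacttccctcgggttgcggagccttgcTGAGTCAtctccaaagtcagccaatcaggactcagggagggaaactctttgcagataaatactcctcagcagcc
Ccl17 promoter, GRCm38.p6 chr8:94810203-94810452, + strand: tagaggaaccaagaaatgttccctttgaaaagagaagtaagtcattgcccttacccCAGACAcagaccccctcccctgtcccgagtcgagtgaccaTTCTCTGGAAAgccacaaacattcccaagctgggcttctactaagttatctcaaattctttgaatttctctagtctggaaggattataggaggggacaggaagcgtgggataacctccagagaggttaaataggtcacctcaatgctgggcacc

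The capitals are GGAAAACCCC in Ccl20, which is a match on the opposite strand, and GGGAATTTCC in Cxcl3, both to the NF-kappaB motif. In Cxcl10 they mark overlapping NFAT and IRF matches farther from the start and an AP-1 match nearer to it. In Ccl17 they mark a SMAD match and overlapping STAT6 and NFAT matches. The motifs were searched on both strands in the promoters of the 8 ligands matched in the RefSeq promoter table, and their background is the share of 32851 promoters of the same length that hold them. The NF-kappaB motif, GGG and TTTCC with 2 bases of any kind between, was present in Ccl20, where it begins 80 bases before the start, and in Cxcl3, where it begins 73 bases before the start, against 1.41% of all promoters. TGANTCA (AP-1) was present in Cxcl10 and in 6.75% of all promoters. TGGAAA (NFAT) was present in Ccl1, Ccl17 and Cxcl10 and in 18.6% of all promoters. The STAT6 motif, TTC and GAA with 4 bases of any kind between, was present in Ccl17 and in 5.85% of all promoters. The IRF motif, GAAA and again GAAA with 2 bases of any kind between, was present in Cxcl10 and in 2.98% of all promoters. CAGACA (SMAD) was present in Ccl17 and Ccl22 and in 17.1% of all promoters. The promoters of Ccl3 and Xcl1 held none of these motifs, and no promoter was matched for Ccl4 and Ccl5. The matches describe the letters and are not evidence of binding.

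Values are levels, that is log2 of the background-subtracted signal minus the 75th percentile of the same array, so that 0 marks that percentile. The percentile lay at a signal of 520.9 to 795.6, and 59.85 to 63.68% of probes per array were well above background as the scanner software calls it. Arrays of a group correlated over genes at 0.9881 to 0.9954. Pan T cell markers were well above background on every array for the 9 markers on the array, Cd4 and Cd3e among them. B cell markers summed to 0.797 to 2.65 times the 75th percentile signal on stimulated Th9 arrays, 5.34 to 7.08 on Th9, 2.63 to 4.57 on Th2 and 57.1 to 78.2 on Treg arrays. Of 14 myeloid and dendritic cell markers, Itgam and Lyz2 were well above background only on the Treg arrays, and S100a8 and S100a9 on no array. Itgax, Cd14, Csf1r, Adgre1, Fcgr3, Cd68, Flt3, Zbtb46, Batf3 and Mpo were well above background on all 12 arrays. Cd8a and Cd8b1, genes of CD8 T cells, were well above background on all 12 arrays. The 12 arrays lay on 3 slides, each scanned once, with the 3 Th2 arrays and Treg 1 on slide 1, stimulated Th9 1 and 2 with Treg 2 and 3 on slide 2, and stimulated Th9 3 with the 3 Th9 arrays on slide 3. Stimulated array 3 therefore sat apart from the other stimulated arrays and beside all of the unstimulated Th9 arrays.

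All 10 ligands were higher in stimulated Th9 cultures than in Th9 cultures. Ccl3 and Ccl4, which encode the macrophage inflammatory proteins MIP-1α and MIP-1β, and Xcl1, which encodes lymphotactin, moved most. Ccl5 and Ccl20 moved least, at 3.31-fold and 4.25-fold. The count of 10 of 10 called higher stands beside 33.2% of the 17925 genes tested in this comparison (limma, Benjamini-Hochberg adjusted p under the threshold of 0.05). Their median log2 difference was 4.41, against 0.02 over all genes tested, and the stimulated arrays all lay above the unstimulated ones for each of the 10 genes, as they did for 35.4% of all genes tested. Of 7 tested markers of CD8 T cells and NK cells, 5 were called lower and 0 higher after stimulation, and the list summed to 7.43 to 33.2 on stimulated Th9 arrays, against 35.9 to 46.7 on Th9 arrays. Of 10 B cell markers 6 were called lower and 0 higher. Of 12 tested myeloid and dendritic cell markers 3 were called higher, namely Zbtb46 at 3.15-fold, Cd14 at 1.71-fold and Itgax at 1.63-fold. The 2 called lower were Adgre1 at 3.51-fold and Csf1r at 3.35-fold. These counts for markers of other cells stand beside 33.2% of all genes tested called higher and 30.5% called lower. The part of these cells in the ligands' values was not tested. In RNA of whole cultures, more cells making a ligand and more RNA per cell cannot be told apart.

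Ccl3 had levels of 6.81, 6.30 and 3.28 on stimulated Th9 arrays, against -7.36, -7.80 and -7.91 on Th9 arrays, where its probe was never well above background. It was at least 3030-fold higher after stimulation (adjusted p = 2.39e-07), a bound that sets the stimulated mean against the lowest signal called well above background on each Th9 array. Stimulated array 3 lay far below the other stimulated arrays and still far above every Th9 array.

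Ccl4, measured on all 12 arrays, had levels of 7.16, 6.61 and 3.85 on stimulated Th9 arrays, against -3.52, -3.80 and -3.59 on Th9 arrays. The log2 difference was 9.51 ± 0.66 (SE, n = 3 each), or 729-fold, with an adjusted p of 5.92e-07 in limma. Among the 15206 genes measured on all 6 arrays of this comparison it ranked 1 from the highest.

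Xcl1 had levels of 4.16, 3.19 and -0.11 on stimulated Th9 arrays, against -5.68, -5.89 and -6.35 on Th9 arrays. Only 1 of 3 Th9 arrays had its probe well above background. The fitted log2 difference was 8.38 ± 0.87 (SE, n = 3 each, limma adjusted p = 9.42e-06), and with the dim arrays raised to their lowest measured signal it was 316-fold.

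Ccl1, the ligand of Ccr8, had levels of 1.98, 0.45 and -0.57 on stimulated Th9 arrays, against -5.94, -7.99 and -6.08 on Th9 arrays. Again 1 of 3 Th9 arrays measured it. Its log2 difference was 7.29 ± 0.68 (SE, n = 3 each, limma adjusted p = 4.23e-06), and 96.8-fold with the dim arrays raised in the same way.

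The Ccr4 ligands Ccl22 and Ccl17 were dim before stimulation. Ccl22 had levels of -3.35, -2.93 and -2.95 on stimulated Th9 arrays, against -8.50, -8.17 and -8.36 on Th9 arrays, none of which was well above background. It was at least 8.15-fold higher (limma adjusted p = 1.17e-07), and its 3 stimulated arrays lay close together. Ccl17 had levels of -2.53, -2.83 and -0.49 on stimulated Th9 arrays, against -4.67, -5.70 and -5.34 on Th9 arrays, 2 of 3 of them measured. The log2 difference of Ccl17 was 3.29 ± 0.62 (SE, n = 3 each, limma adjusted p = 7.88e-04). Here stimulated array 3 was the highest of the stimulated arrays, the reverse of its place for Ccl3, Ccl4 and Xcl1.

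Cxcl3, a neutrophil-attracting ligand, had levels of -0.75, -0.24 and 0.31 on stimulated Th9 arrays, against -3.72, -3.89 and -3.71 on Th9 arrays. The groups lay apart, and the log2 difference was 3.54 ± 0.46 (SE, n = 3 each, limma adjusted p = 4.72e-05), or 11.7-fold. Cxcl10 had levels of -1.07, -0.81 and -2.29 on stimulated Th9 arrays, against -3.91, -5.16 and -5.11 on Th9 arrays. Its log2 difference was 3.34 ± 0.47 (SE, n = 3 each, limma adjusted p = 9.87e-05). Of 16 interferon-stimulated genes listed, 8 were called higher and 1 lower in stimulated Th9 cultures, beside 33.2% and 30.5% of all genes tested.

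Ccl20, whose receptor Ccr6 marks Th17 cells and other subsets, had levels of -2.44, -2.69 and -3.83 on stimulated Th9 arrays, against -5.24, -5.02 and -4.97 on Th9 arrays. It differed by 2.09 ± 0.30 on the log2 scale (SE, n = 3 each, limma adjusted p = 1.09e-04). Ccl5, or RANTES, had levels of 2.84, 2.83 and 2.31 on stimulated Th9 arrays, against 0.87, 0.99 and 0.94 on Th9 arrays. It differed by 1.73 ± 0.19 (SE, n = 3 each, limma adjusted p = 1.49e-05). The second Ccl5 probe gave 1.87 ± 0.19.

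**Figure D1:**
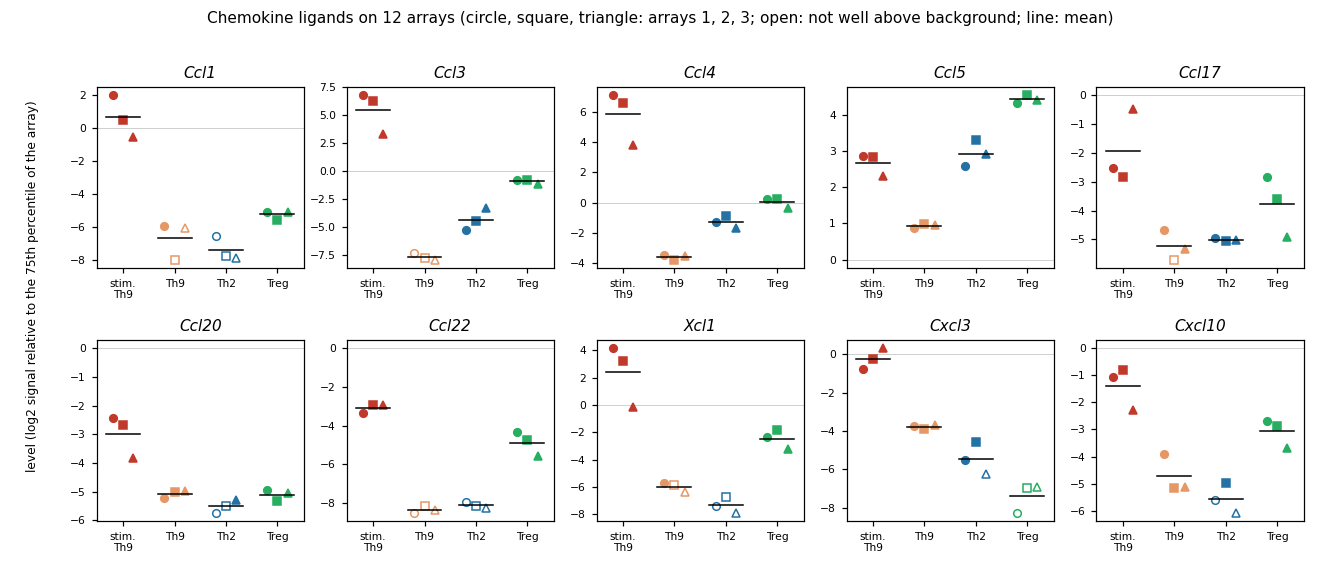
Level of each ligand (y axis, log2 signal relative to the 75th percentile of the array; scales differ between panels) on the 12 arrays, by culture on the x axis. Circles, squares and triangles are arrays 1, 2 and 3, open symbols are probes not well above background, and lines are means of 3 arrays; Ccl5 is shown by the brighter of its 2 probes. Stimulated Th9 arrays are highest for every ligand but Ccl5, whose 3 Treg arrays, at 4.31 to 4.54, lie above all others.

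The 3 stimulated arrays differed among themselves. The level on array 3 minus the mean of arrays 1 and 2 was -3.78 for Xcl1, -3.27 for Ccl3 and -3.03 for Ccl4, and 0.0782%, 0.14% and 0.19% of all genes tested differed at least as much in size. It was -1.78 for Ccl1, -1.35 for Cxcl10, -1.27 for Ccl20 and -0.53 for Ccl5. Ccl17 went the other way, at 2.19, a size reached by 0.603% of genes, with Cxcl3 at 0.80 and Ccl22 at 0.19. Some other genes were lowest on array 3 as well. Ifng, the gene of the type 1 cytokine IFN-γ, had levels of 8.39, 8.12 and 4.56 on stimulated arrays 1, 2 and 3, and Csf2, the gene of GM-CSF, had 4.05, 3.33 and 0.65. Egr2, an early response gene of the T cell receptor, had 5.79, 5.65 and 5.16. The 7 tested CD8 T cell and NK cell markers summed to 33.2, 28.7 and 7.43 times the 75th percentile signal on these arrays. Among them Cd8a was at levels of 2.47, 2.29 and -2.23. The 12 tested myeloid and dendritic cell markers summed to 16.9, 22.5 and 40.2. Most of this sum was that of Batf3, whose level averaged 4.53 on stimulated Th9, 5.07 on Th9 and 4.53 on Th2 arrays. Of this list the Fc receptor gene Fcgr3, a myeloid and NK cell marker, was at levels of -4.28, -4.42 and 1.43. Its SE in the fit, 1.21, was the largest of the list, the others having 0.15 to 0.62. The part of these cells and of the slide in the ligands' values was not tested.

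Without stimulated array 3 all 10 ligands were still called higher, as were 5805 genes over all genes tested. The log2 differences were 14.24 for Ccl3, 10.52 for Ccl4, 9.64 for Xcl1, 7.88 for Ccl1 and 2.56 for Ccl17. The bound for Ccl3 was then at least 6460-fold. Within slide 3, where array 3 is the only stimulated array, it lay above the mean of the 3 Th9 arrays by 10.97 for Ccl3, 7.49 for Ccl4, 6.10 for Ccl1, 5.86 for Xcl1, 5.39 for Ccl22, 4.74 for Ccl17, 4.08 for Cxcl3, 2.44 for Cxcl10, 1.37 for Ccl5 and 1.24 for Ccl20. These are also the differences that the fit with slide as a block gives, so that fit rests on array 3 alone for the stimulated cultures and takes its spread from all groups. All 10 were called in it, with limma adjusted p from 1.02e-05 to 6.97e-03. Array 3 alone put Ccl3 at least 669-fold, and Ccl4 180-fold, above the Th9 arrays.

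**Figure D2:**
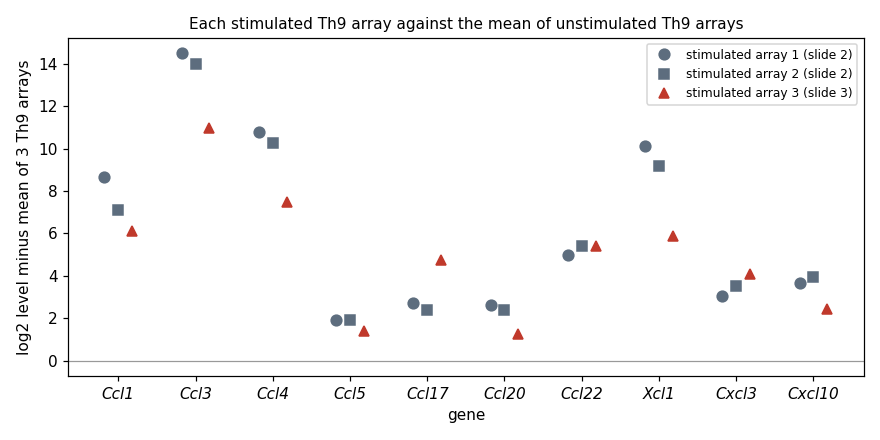
Level of each ligand on the 3 stimulated Th9 arrays minus the mean level of the 3 Th9 arrays (y axis, log2), by gene on the x axis. Grey symbols are stimulated arrays 1 and 2 on slide 2 and red triangles are array 3 on slide 3, which also held the Th9 arrays; array 3 is lowest for 7 ligands, highest for Ccl17 and Cxcl3 and between the others for Ccl22, and no point lies at or below 0.

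In the absence of restimulation, Th9 cultures had lower Ccl3, Ccl4 and Ccl5 and higher Cxcl3 than Th2 cultures. This comparison sets cultures with and without TGF-β side by side. Of the 10 ligands 3 were called lower, beside 9.25% of all genes tested, and 1 was called higher, beside 7.76%. Ccl5 had levels of 0.87, 0.99 and 0.94 on Th9 arrays, against 2.57, 3.29 and 2.90 on Th2 arrays, a log2 difference of -1.99 ± 0.19 (SE, n = 3 each, limma adjusted p = 9.67e-05). Its second probe gave -1.82 ± 0.19. The Th9 arrays lay close together, and the groups did not overlap.

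Ccl4 and Ccl3 ran the same way. Ccl4 had levels of -3.52, -3.80 and -3.59 on Th9 arrays, against -1.33, -0.91 and -1.69 on Th2 arrays, and differed by -2.33 ± 0.66 (SE, n = 3 each, limma adjusted p = 0.0365). Ccl3 was well above background on no Th9 array and on all 3 Th2 arrays, where its levels were -5.24, -4.49 and -3.29, and it was at least 3.39-fold lower in Th9 cultures (limma adjusted p = 0.0155). Among the 15492 genes measured on all 6 of these arrays, Ccl4 and Ccl5 ranked 34 and 62 from the lowest. The Ccl4 call was lost when any 1 of the Th9 or Th2 arrays was left out (adjusted p 0.0642 to 0.107), and that of Ccl3 without Th2 array 3 (0.0574) or Th9 array 2 (0.0508).

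Cxcl3 had levels of -3.72, -3.89 and -3.71 on Th9 arrays, against -5.50, -4.57 and -6.26 on Th2 arrays, 2 of 3 of them well above background. It differed by 1.67 ± 0.46 (SE, n = 3 each, limma adjusted p = 0.0309), without overlap, but the call was lost when any 1 of 5 of these 6 arrays, all but Th2 array 2, was left out (adjusted p 0.0686 to 0.101). The log2 differences of Ccl1 (0.74 ± 0.68), Ccl17 (-0.23 ± 0.62), Ccl20 (0.43 ± 0.30), Xcl1 (1.38 ± 0.87) and Cxcl10 (0.83 ± 0.47) did not pass the test. Their intervals were wide, that of Xcl1 running from -0.54 to 3.30. The probes of Ccl1 and Xcl1 were well above background on 1 of 3 Th9 arrays and on no Th2 array. Their differences therefore compare signals near background. Ccl22 was not well above background on any Th9 or Th2 array, so no order of the groups can be given.

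Markers of other cells differed here too, beside 7.76% of all genes tested called higher and 9.25% called lower. The CD8 T cell and NK cell markers summed to 35.9 to 46.7 times the 75th percentile signal on Th9 arrays, against 17.9 to 23.5 on Th2 arrays, with 2 of 7 called higher and 0 lower. Of 10 B cell markers 3 were called higher and 0 lower. The part of these cells in the ligands' values was not tested.

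Th9 and Th2 arrays shared no slide, so a within-slide value does not exist for this comparison. With slide as a block, Th9 and Th2 cultures are tied together only through the stimulated Th9 arrays and the Treg arrays. The distance between stimulated array 3 and the other stimulated arrays therefore enters the estimate. In this fit none of the 4 calls held. Ccl5 was then at -1.62 ± 0.39 (SE, adjusted p = 0.088), Ccl3 at 0.14 ± 1.01 (adjusted p = 0.98), Ccl4 at 0.98 ± 0.57 (adjusted p = 0.529) and Cxcl3 at -0.45 ± 0.85 (adjusted p = 0.902), while Ccl20 at 1.96 and Xcl1 at 5.35 were called higher (limma adjusted p = 0.0353 and 0.04). The Xcl1 probe, however, was well above background on no Th2 array and on 1 of 3 Th9 arrays. Of the 4 ligands called without the block Ccl5 alone kept its sign. With normexp background correction, too, Ccl5 alone stayed called.

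Th9 cultures had less of 6 ligands than Treg cultures and more of Cxcl3. Of the 10 ligands 6 were called lower in Th9 cultures, beside 35.3% of all genes tested, and 1 higher, beside 28.8%. These cultures differ in IL-4, which was added to Th9 and neutralised in Treg cultures, in anti-IFN-γ and in the IL-2 of expansion. Ccl5 had levels of 0.87, 0.99 and 0.94 on Th9 arrays, against 4.31, 4.54 and 4.41 on Treg arrays, and the log2 difference was -3.49 ± 0.19 (SE, n = 3 each, limma adjusted p = 1.2e-07), or 11.2-fold lower. Its second probe gave -3.27 ± 0.19.

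Ccl3, at background in Th9 cultures, had levels of -0.76, -0.80 and -1.15 on Treg arrays and was at least 36.7-fold lower in Th9 cultures (limma adjusted p = 2.45e-05). Ccl4 had levels of -3.52, -3.80 and -3.59 on Th9 arrays, against 0.21, 0.23 and -0.37 on Treg arrays, and was 12.7-fold lower (adjusted p = 6.4e-04). Xcl1 had levels of -5.68, -5.89 and -6.35 on Th9 arrays, against -2.34, -1.85 and -3.20 on Treg arrays, and differed by -3.51 ± 0.87 (SE, n = 3 each, limma adjusted p = 4.65e-03). None of these 3 genes had overlapping groups, but the share of all genes without overlap was not counted for this comparison.

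Ccl22 was at background on the Th9 arrays and measured on all 3 Treg arrays, at -4.30, -4.74 and -5.58, at least 2.35-fold lower in Th9 cultures (limma adjusted p = 1.38e-06). Ccl17, the other ligand of Ccr4, had levels of -2.83, -3.60 and -4.91 on Treg arrays and missed the threshold at -1.46 ± 0.62 (SE, n = 3 each, limma adjusted p = 0.0609). Without Treg array 3, the lowest, Ccl17 was called lower in Th9 cultures at -2.02 (adjusted p = 0.0155). Cxcl10 had levels of -3.91, -5.16 and -5.11 on Th9 arrays, against -2.68, -2.85 and -3.69 on Treg arrays, a difference of -1.66 ± 0.47 (SE, n = 3 each, limma adjusted p = 0.0102). All 16 interferon-stimulated genes were called lower in Th9 than in Treg cultures as well, at a median of -3.84, beside 35.3% of all genes tested.

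Cxcl3 was measured on all 3 Th9 arrays and on no Treg array, where its levels were -8.26, -6.98 and -6.89, which made it at least 4.72-fold more abundant in Th9 cultures (limma adjusted p = 4.98e-05). Ccl1 at -1.41 ± 0.68 (SE, n = 3 each, limma adjusted p = 0.0906) and Ccl20 at 0.03 ± 0.30 (adjusted p = 0.946) did not pass the test. For Ccl20 the interval of the difference ran from -0.64 to 0.69.

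Markers of other cells moved with this comparison. The 10 B cell markers summed to 5.34 to 7.08 times the 75th percentile signal on Th9 arrays, against 57.1 to 78.2 on Treg arrays, and the pan T cell markers to 200 to 218 on Th9 arrays, against 393 to 504 on Treg arrays. Lyz2, a lysozyme gene of myeloid cells, was at least 91.9-fold lower in Th9 than in Treg cultures (limma adjusted p = 1.58e-06). Of 12 tested myeloid and dendritic cell markers 7 were called lower in Th9 cultures and 3 higher, beside 35.3% and 28.8% of all genes tested. The median log2 difference of the list was -0.70. Its summed level was 32.0 to 43.1 on Th9 arrays, against 3.98 to 5.17 on Treg arrays. On Th9 arrays the sum was mostly that of Batf3, whose level averaged 5.07 there and 1.07 on Treg arrays. The part of these cells in the values of Ccl17, Ccl22, Cxcl10 and the other ligands was not tested. No slide held Th9 and Treg arrays together, and the fit with slide as a block ties these cultures only through the stimulated arrays. With slide as a block Ccl5 (-3.01), Ccl3 (-3.45), Ccl22 (-3.37) and Cxcl3 (2.36) kept their calls (limma adjusted p from 2.36e-04 to 0.0254), while Ccl4 (-0.54), Xcl1 (0.33) and Cxcl10 (-0.10) lost theirs (adjusted p from 0.384 to 0.925) and Ccl17 (-3.17) and Ccl20 (1.38) were called. With normexp background correction Xcl1 lost its call (limma adjusted p = 0.0953).

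Th2 cultures, too, had less of most ligands than Treg cultures. Here 6 of 10 were called lower, beside 33.5% of all genes tested, and Cxcl3 was called higher, beside 29.3%. The Treg arrays are the same as above, so the comparisons share them. Xcl1, at background on all 3 Th2 arrays, was at least 10.9-fold lower than in Treg cultures (limma adjusted p = 5.66e-04). Ccl3, measured on every array of both groups, had levels of -5.24, -4.49 and -3.29 on Th2 arrays, against -0.76, -0.80 and -1.15 on Treg arrays, a log2 difference of -3.44 ± 0.78 (SE, n = 3 each, limma adjusted p = 2.72e-03). The groups lay well apart.

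Ccl5 had levels of 2.57, 3.29 and 2.90 on Th2 arrays, against 4.31, 4.54 and 4.41 on Treg arrays, and differed by -1.50 ± 0.19 (SE, n = 3 each, limma adjusted p = 5.08e-05). Cxcl10 had levels of -5.59, -5.00 and -6.08 on Th2 arrays, against -2.68, -2.85 and -3.69 on Treg arrays. Its probe was well above background on 1 of 3 Th2 arrays. The fitted difference was -2.48 ± 0.47 (SE, n = 3 each, limma adjusted p = 9.05e-04). Both Ccl22 and Ccl1 were at background on all 3 Th2 arrays, Ccl22 being at least 2.04-fold lower than in Treg cultures (limma adjusted p = 2.39e-06) and Ccl1 at least 1.57-fold (adjusted p = 0.0171). The Ccl1 call was lost without Th2 array 2 (adjusted p = 0.0544) or 3 (adjusted p = 0.0592).

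Cxcl3, at background on the Treg arrays, was at least 1.49-fold higher in Th2 cultures (limma adjusted p = 3.45e-03), with 2 of 3 Th2 arrays measured. The differences of Ccl4 (-1.33 ± 0.66), Ccl17 (-1.22 ± 0.62) and Ccl20 (-0.41 ± 0.30) missed the threshold. Without Treg array 3 Ccl17 was called lower at -1.79 (adjusted p = 0.0273).

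Slide 1 held the 3 Th2 arrays and Treg array 1, which allows a comparison on 1 slide. The Th2 mean minus that Treg array was -5.01 for Xcl1, -3.80 for Ccl22, -3.58 for Ccl3, -2.88 for Cxcl10, -2.29 for Ccl1, -2.17 for Ccl17, -1.52 for Ccl4, -1.39 for Ccl5 and -0.58 for Ccl20, and 2.82 for Cxcl3. All 10 signs equal those over all arrays. The fit with slide as a block gives these same differences, so it rests on Treg array 1 alone for the Treg cultures and takes its spread from all groups. It called 6 of the 7 ligands again but not Ccl1 (limma adjusted p = 0.061), and it called Ccl4, Ccl17 and Ccl20 lower (adjusted p = 6.32e-03, 6.21e-03 and 0.0491). For Ccl17 array 1 was the highest of the Treg arrays. With normexp background correction the calls of Ccl1, Xcl1 and Cxcl3 were lost (adjusted p = 0.528, 0.114 and 0.331). Of 16 interferon-stimulated genes 15 were called lower here, beside 33.5% of all genes tested. B cell markers moved too, at 2.63 to 4.57 on Th2 arrays, against 57.1 to 78.2 on Treg arrays.

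**Figure D3:**
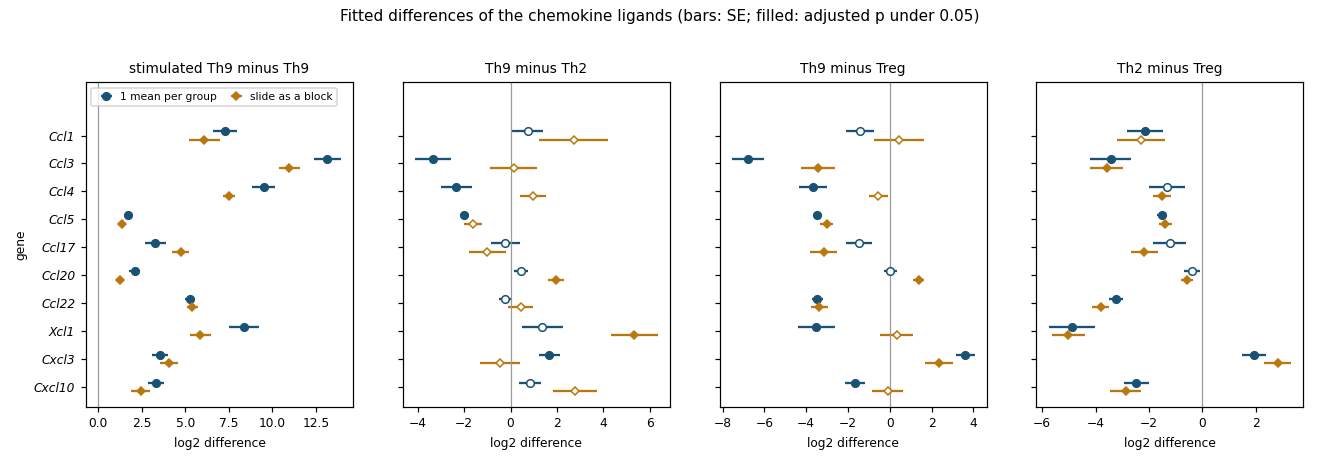
Log2 difference of each ligand (x axis) in the 4 comparisons, with limma standard errors as bars; blue circles are the fit with 1 mean per group, orange diamonds the fit with slide as a block, and filled symbols have an adjusted p under 0.05. All 10 ligands are filled on the right of 0 in both fits after stimulation, and in Th9 minus Th2 none of the 4 filled circles has a filled diamond.

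Placed in order of their mean levels, the 4 cultures fell into few patterns. For 9 of the 10 ligands stimulated Th9 cultures stood first, and for Ccl17 the lowest stimulated array and the highest Treg array were -2.83 apiece. Treg cultures stood second for Ccl1, Ccl3, Ccl4, Ccl17, Ccl22, Xcl1 and Cxcl10. Th9 and Th2 arrays overlapped for Ccl1, Ccl17, Ccl22 and Cxcl10, and Ccl20 overlapped between Th9 and Treg and between Treg and Th2 arrays. Over the 12 arrays, which fall into 4 groups, the level most like that of Ccl4 was that of Il3 (Pearson r = 0.995, n = 12), that most like Cxcl10 was Xcl1 (0.974), and for Ccl20 Ifng came second (0.976). Cxcl3 alone ran stimulated Th9, Th9, Th2 and Treg, at means of -0.23 ± 0.53, -3.77 ± 0.10, -5.44 ± 0.85 and -7.38 ± 0.76 (SD, n = 3 each) with no overlap between neighbours. Its probe was, however, well above background on 2 of 3 Th2 arrays and on no Treg array. With slide as a block its Th9 minus Th2 difference turned to -0.45. Ccl5 stood highest in Treg cultures at 4.42 ± 0.11 (SD, n = 3), and stimulated Th9 at 2.66 ± 0.31 and Th2 at 2.92 ± 0.36 overlapped, in the opposite order on its second probe.

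Of 8 listed receptors of these ligands Ccr1 failed the filter on dim probes. Of the 7 tested, 3 were called higher and 1 lower in stimulated Th9 than in Th9 cultures, beside 33.2% higher and 30.5% lower of all genes tested. Ccr4, Ccr3 and Cxcr3 differed by 0.84 ± 0.19, 1.02 ± 0.21 and 1.09 ± 0.40, and Xcr1, the receptor of Xcl1, by -0.40 ± 0.14 (SE, n = 3 each). For Cxcr3 the stimulated and unstimulated arrays overlapped, array 3 lying at -0.17. The calls among the 7 receptors were 1 higher and 1 lower between Th9 and Th2 cultures (7.76% and 9.25% of all genes tested), 3 higher and 2 lower between Th9 and Treg cultures (28.8% and 35.3%) and 3 higher and 3 lower between Th2 and Treg cultures (29.3% and 33.5%). Between stimulated Th9 and Th9 cultures Ccr8, the receptor of Ccl1, differed by -0.05 ± 0.16 with an interval of -0.40 to 0.30.

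Among the unstimulated cultures Ccr8 was highest in Th9, with levels of 1.97, 1.30 and 1.63 on Th9 arrays, against -0.43, -0.35 and -0.46 on Th2 arrays (difference 2.04 ± 0.16, limma adjusted p = 2.58e-05) and -4.02, -4.12 and -4.22 on Treg arrays (difference 5.75 ± 0.16, adjusted p = 2.21e-09). Ccr4 differed by 4.19 ± 0.19 between Th9 and Treg cultures and by 3.97 ± 0.19 between Th2 and Treg cultures. Ccr6 and Cxcr3 were lower in Th9 than in Treg cultures, with log2 differences of -6.60 ± 0.29 and -5.20 ± 0.40 (SE, n = 3 each). Between Th9 and Th2 cultures Cxcr3 differed by -1.48 ± 0.40 (SE, n = 3 each, limma adjusted p = 0.0286). Cxcr2, the receptor of Cxcl3, was at background on all 3 Treg arrays and at least 4.13-fold higher in Th2 cultures (adjusted p = 9.73e-04).

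**Figure D4:**
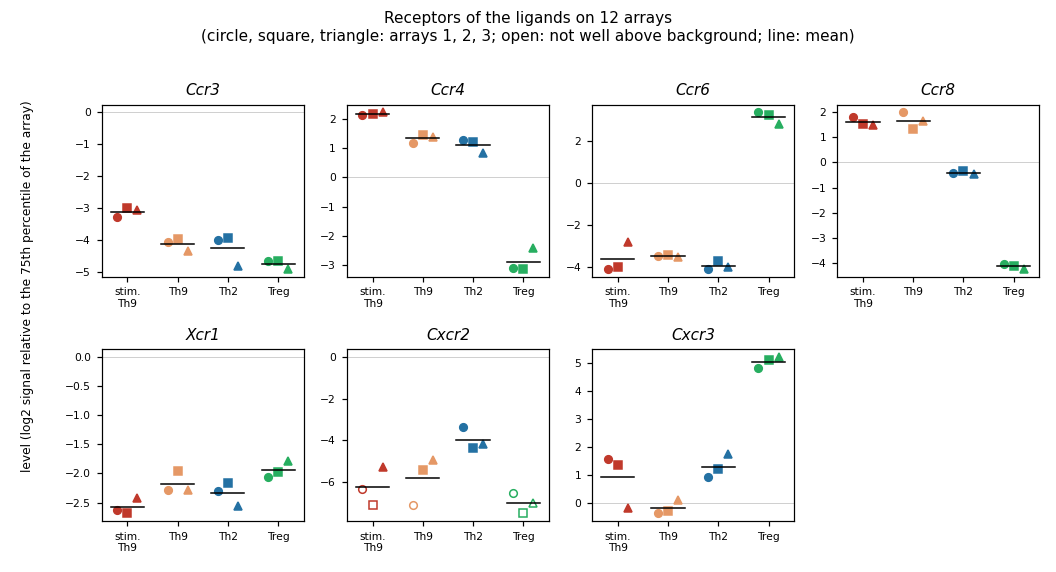
Level of each of 7 receptor genes (y axis, log2 signal relative to the 75th percentile of the array; scales differ between panels) on the 12 arrays, by culture on the x axis. Circles, squares and triangles are arrays 1, 2 and 3, open symbols are probes not well above background and lines are means of 3 arrays; Ccr8 and Ccr4 lie lowest in Treg cultures and Ccr6 and Cxcr3 highest there.

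Other chemokine ligand genes on the array were mostly dim. Of 28 listed, 26 were on the array and 10 passed the filter, and 3 were called higher and 2 lower in stimulated Th9 than in Th9 cultures, beside 33.2% and 30.5% of all genes tested. Ccl9 differed by 3.27 ± 0.55 and Cx3cl1, the gene of fractalkine, by 1.75 ± 0.32 (SE, n = 3 each, limma adjusted p = 3.28e-04 and 5.52e-04). Cxcl16, 1 of the 2 called lower, has no settled direction. Its brighter probe averaged -3.00 on stimulated Th9 arrays and -1.80 on Th9 arrays, whereas its second probe averaged -4.22 on stimulated Th9 arrays and -7.54 on Th9 arrays, none of which had that probe well above background. Between Th9 and Th2 cultures limma called none of the 10, and 2 had an unadjusted p under 0.05. Ccl6 and Pf4, known from myeloid cells and platelets, were well above background only on Treg arrays and were at least 43.1-fold and 5.02-fold lower in Th9 than in Treg cultures (limma adjusted p = 3.64e-07 and 4.89e-06). In all 2 of the 10 were called higher and 4 lower between Th9 and Treg cultures (28.8% and 35.3% of all genes tested), and as many between Th2 and Treg cultures (29.3% and 33.5%). Of 31 tested early response genes of the T cell receptor, 19 were called higher and 2 lower in stimulated Th9 than in Th9 cultures, against the same 33.2% and 30.5%.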

How the data were processed

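Gene expression was measured in 12 one-colour arrays, grouped and numbered by their titles into 4 groups of 3. The deposited scanner files hold spot intensity on a linear scale, with the background already subtracted; the file headers name Agilent Feature Extraction, version 10.5.1.1, as the software. Per the file headers, this deposited intensity is the processed signal. Arrays were not yet normalized to each other. A combined table deposited by the authors gives log2 values, normalized between arrays as judged from its near-equal column medians of 5.17, and served as an alternative.

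Levels are log2 processed signals from the scanner files less the array's own 75th percentile. Control spots and flagged spots (60 to 94 per array) were left out, and no probe was saturated. Probes well above background on at least 3 of 12 arrays were kept, the brightest per gene, which left 17925 genes. limma 3.58.1 in R 4.3.3 (package data.table, version 1.17.8) fitted 1 mean per group, on 8 residual degrees of freedom (prior 2.51), with Benjamini-Hochberg adjustment over all genes of a comparison. The fit was tested on simulated data. A probe at background on every array of the dimmer group has its fold given only as a lower bound. Summed marker levels are linear, in multiples of the 75th percentile signal. The number of arrays limits the precision.

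The ligands, gene lists and motifs were chosen with earlier results of these data known. All ligands, their probes and 8 receptors were named (1 further receptor gene is not reported here), and called members of other lists with the largest difference. Alternatives changed background correction, normalization, source, filter, variance prior, probe choice, arrays in the fit, slide and replicate number. For Th9 and Th2 arrays of the same number, deviations from the group means correlated at 0.201, 0.185 and 0.412, so the numbers may pair these samples. The other comparisons did not pass this check.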

Additional observations from a re-analysis of the deposited data

How the results depend on the processing

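After stimulation all 10 ligands kept their direction and call under all 17 alternatives, with log2 differences of 8.61 to 14.24 for Ccl3 and 1.28 to 5.40 for Ccl22, the low ends coming from normexp background correction with an offset of 50, which compresses dim signals. The comparisons among unstimulated cultures depended on the processing. Between Th9 and Th2, the number of ligands called higher was 0 under normexp, 0 without the filter on dim probes, 2 with only the 6 arrays compared and 2 with slide as a block, and the number called lower was 1 under normexp and 0 with slide as a block. Over all genes, slide as a block left 188 called higher and 129 lower between Th9 and Th2, and 3157 higher and 3528 lower between Th9 and Treg. It gave 2 ligands higher between Th9 and Treg, and normexp 0 higher between Th2 and Treg.

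Under normexp the Th9 minus Th2 difference turned to -0.017 for Ccl1, -0.031 for Ccl20 and -0.04 for Xcl1, and the Th9 minus Treg difference of Ccl20 to -0.16. With slide as a block the Th9 minus Th2 difference turned to 0.14 for Ccl3, 0.98 for Ccl4, 0.43 for Ccl22 and -0.45 for Cxcl3, and the Th9 minus Treg difference to 0.44 for Ccl1 and 0.33 for Xcl1. This fit links Th9 cultures to Th2 and Treg cultures only through the stimulated arrays, array 3 on slide 3 and arrays 1 and 2 on slide 2. The level of array 3 minus the mean of arrays 1 and 2, from -3.78 for Xcl1 to 2.19 for Ccl17, therefore enters these differences. The part of the slide itself was not tested, nor was the cause of the turns under normexp. With slide as a random block the estimated correlation was -0.00272, which makes that fit in effect the one without a block. None of Ccl1, Ccl17, Ccl20 and Ccl22 was called before or after turning. Normexp also ended the calls of Ccl3, Ccl4 and Cxcl3 between Th9 and Th2 (adjusted p = 0.471, 0.0764 and 0.196), of Xcl1 between Th9 and Treg (0.0953), and of Ccl1, Xcl1 and Cxcl3 between Th2 and Treg (0.528, 0.114 and 0.331). Without the filter on dim probes Ccl4 and Cxcl3 were not called between Th9 and Th2 (adjusted p = 0.0605 and 0.052).

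Leaving out 1 array at a time gave 0 to 1 ligands higher and 1 to 2 lower between Th9 and Th2, 1 higher and 6 to 7 lower between Th9 and Treg, and 1 higher and 5 to 7 lower between Th2 and Treg. Over all genes it gave 849 to 1255 higher and 886 to 1497 lower between Th9 and Th2. The all-gene ranges were 4649 to 5151 higher and 5608 to 6069 lower between Th9 and Treg. Between Th2 and Treg they were 4741 to 5261 higher and 5366 to 5763 lower. Ccl17, uncalled, then ranged from -0.514 to 0.001 for Th9 minus Th2, and Ccl20, uncalled, from -0.09 to 0.111 for Th9 minus Treg, with a negative value without Th9 array 2, Th9 array 3 or Treg array 2.

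With the replicate number as a block, the pairing changed the call of 1 ligand, Ccl1 between Th9 and Treg, at an unchanged difference of -1.41 (limma adjusted p = 0.0407), where the numbers do not pair the samples by the check used, and no other call of a ligand.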
